A study of Mus musculus with 42 samples.

Results

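The genes described here are the autosomal genes that visceral endoderm expressed well enough to compare its parental alleles. Of 24083 genes in the table, 23031 were outside the deposited list of 1052 X-linked genes, and 5384 of these reached 5 FPKM (fragments per kilobase of transcript, scaled to library size) in visceral endoderm, summed over both alleles. Above 0 FPKM were 14279, and those under the minimum are described only where named. Of the 5384 genes, 5378 matched the GRCm38.p6 annotation, all on numbered chromosomes.

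The samples were wild-type female mouse embryos labelled C57BL/6N X PWK/PhJ, the mother's strain being written first by convention, and RNA was read by Smart-seq2, which captures polyadenylated RNA and does not mark the strand. Visceral endoderm at E6.5 (3 samples) was set against extraembryonic ectoderm at E6.5 (2 samples) and epiblast at E6.5 (1 sample), none of them treated. The table also held 8-cell embryos (3), morulae (3), inner cell mass (2) and trophectoderm (3) at E3.5, and yolk sac at E9.5 (1), which serve as further columns. The authors pooled the samples of a tissue into 1 column per allele, so no value below has a spread between embryos and no difference was tested. The cross ran in 1 direction, and strain and parent of origin cannot be told apart for any gene. Read depth was unknown.

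Visceral endoderm is the epithelium that surrounds the early mouse egg cylinder, takes up nutrients for the embryo and secretes apolipoproteins and other serum proteins. In genomic imprinting a gene is expressed mainly from the allele of 1 parent, usually because DNA methylation laid down in the egg or the sperm marks a control region nearby. The zinc finger protein ZFP57 holds that methylation by binding the methylated hexamer TGCCGC, and a smaller group of genes is imprinted in extraembryonic tissue through H3K27me3, a Polycomb histone mark inherited from the egg.

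The promoters of 4 imprinted genes, chosen from both ends of the allele scale, are printed to show how their CG content differs. They are RefSeq promoter windows, whose overlap with the control regions methylated in egg or sperm was not examined, and methylation was not measured here. Each window runs from 250 bases before to 50 bases from the start of the RefSeq transcript on, in GRCm38.p6, 5′ to 3′ on the gene's strand, and the capitals mark CG dinucleotides, the sites where DNA methylation is mostly found. For a gene with several starts the window with the most CG is shown. Mest (chr6:30737800-30738099, plus strand) and Peg3 (chr7:6730370-6730669, minus strand) were expressed from the paternal allele, and Meg3 (chr12:109540746-109541045, plus strand) and Grb10 (chr11:12037371-12037670, minus strand) from the maternal allele.
Mest: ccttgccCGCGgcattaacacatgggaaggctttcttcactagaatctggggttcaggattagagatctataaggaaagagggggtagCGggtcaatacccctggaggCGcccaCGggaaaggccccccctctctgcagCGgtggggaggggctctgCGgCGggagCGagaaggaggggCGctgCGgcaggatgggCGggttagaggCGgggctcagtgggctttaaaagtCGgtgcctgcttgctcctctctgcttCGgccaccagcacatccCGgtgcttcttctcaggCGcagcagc
Peg3: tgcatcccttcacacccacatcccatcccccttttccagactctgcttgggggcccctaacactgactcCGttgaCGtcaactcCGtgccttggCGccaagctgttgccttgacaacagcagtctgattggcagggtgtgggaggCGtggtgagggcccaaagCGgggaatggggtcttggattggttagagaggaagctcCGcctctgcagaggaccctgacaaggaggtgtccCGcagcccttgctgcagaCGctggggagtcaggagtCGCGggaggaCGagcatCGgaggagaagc
Meg3: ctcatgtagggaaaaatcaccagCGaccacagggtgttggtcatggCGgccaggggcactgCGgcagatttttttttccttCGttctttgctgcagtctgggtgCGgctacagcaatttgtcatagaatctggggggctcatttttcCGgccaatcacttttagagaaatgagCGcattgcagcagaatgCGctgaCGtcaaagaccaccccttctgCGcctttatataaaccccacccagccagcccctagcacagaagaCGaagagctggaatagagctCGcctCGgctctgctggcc
Grb10: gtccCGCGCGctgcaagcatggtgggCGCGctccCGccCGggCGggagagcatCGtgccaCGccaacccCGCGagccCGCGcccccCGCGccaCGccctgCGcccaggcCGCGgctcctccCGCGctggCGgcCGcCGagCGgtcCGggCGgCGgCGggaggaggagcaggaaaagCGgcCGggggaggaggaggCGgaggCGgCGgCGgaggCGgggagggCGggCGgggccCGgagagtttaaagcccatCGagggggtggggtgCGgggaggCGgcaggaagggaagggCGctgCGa
The Grb10 window held 45 CG and the Mest window 17, while those of Peg3 and Meg3 held 13 each. The hexamer TGCCGC or its reverse complement GCGGCA began at base 9 and at base 184 of the Mest window, at base 61 for Meg3 and at base 275 for Grb10, counted from the 5′ end. The Peg3 window held neither. A promoter window was found for 4163 of the 5384 genes, and 984 of them (23.6%) had the hexamer in at least 1 window, against 11.6% of all 32851 windows of the RefSeq table. The share was 8 of 18 (44.4%) for genes at the paternal end and 9 of 37 (24.3%) for genes at the maternal end. Only 2 of those 8 and 2 of those 9 were on the imprinted lists, out of 4 and 8 listed genes with a window. The rest with the hexamer were unlisted genes. Genes with several windows had more chances to hold it, and a match is not a binding site.

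Most autosomal genes were read evenly from both alleles in visceral endoderm. The paternal share, the paternal FPKM over the sum of both alleles, had a median of 49.1% over the 5384 genes, with quartiles of 44.8% and 52.7%, and 4407 genes (81.9%) lay between 40% and 60%. A share of 90% or more was found for 27 genes (0.501%), called the paternal end here, and a share of 10% or less for 55 genes (1.02%), called the maternal end. Of these, 10 and 25 were listed at 0 for the other allele. The bands next to them held 26 genes from 80% to 90% and 23 from 10% to 20%.

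**Figure D1:**
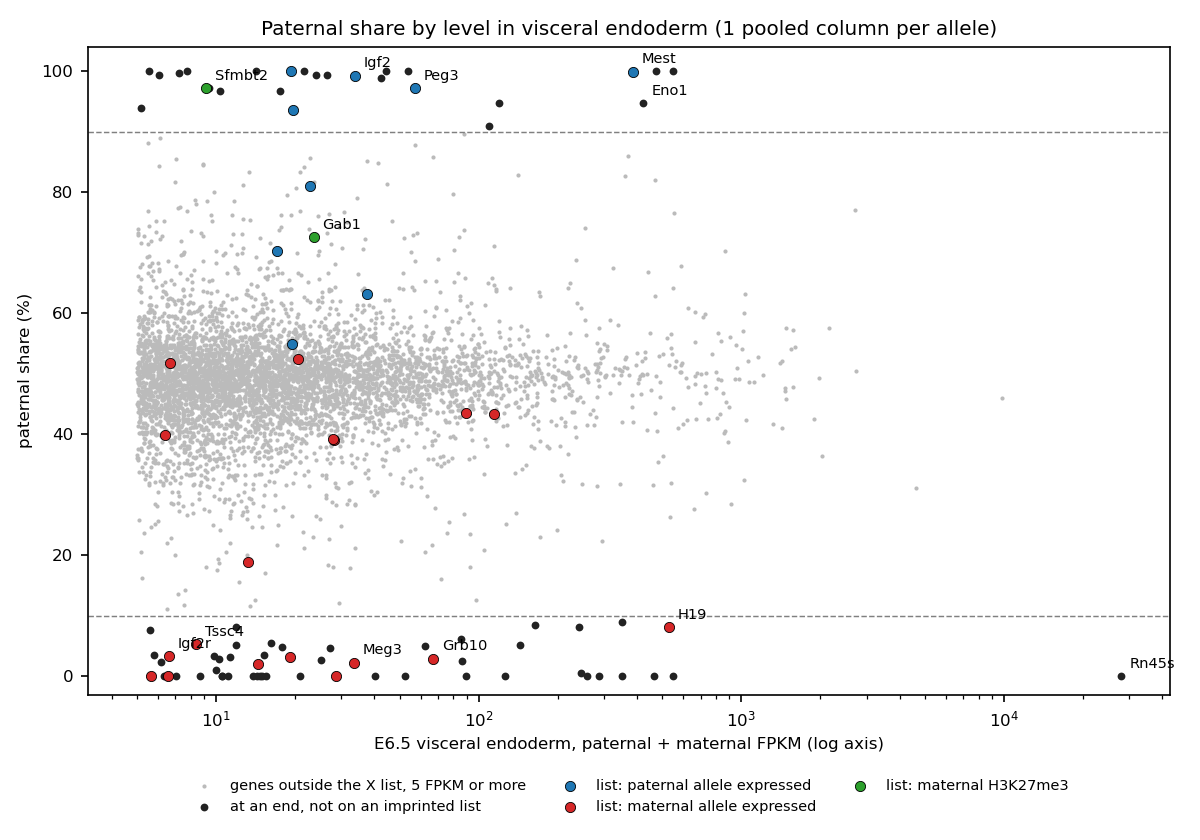
Paternal share (%) of each of the 5384 genes against its summed FPKM in visceral endoderm on a log axis, 1 point per gene, with dashed lines at 90% and 10%. Grey points gather around the median of 49.1%, coloured points are members of the imprinted lists, and black points are the other genes at an end, among them Rn45s at the far right.

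The 2 other tissues of the same age had more genes at the ends. In extraembryonic ectoderm 76 of 5866 genes (1.3%) had a share of 90% or more and 102 (1.74%) one of 10% or less, and in epiblast 40 of 4959 (0.807%) and 55 (1.11%) did. Their medians were 49.0% and 49.1%. The share of genes from 40% to 60% was 80.2% in extraembryonic ectoderm and 73.2% in the single epiblast sample. Gene by gene, visceral endoderm minus extraembryonic ectoderm had a median absolute difference of 2.73 points over 4741 genes, and visceral endoderm minus epiblast one of 4.32 points over 4294 genes. A difference of 30 points or more was found for 28 genes against extraembryonic ectoderm and for 70 against epiblast. Shares were far more scattered in the single yolk sac sample, with 2677 genes at 5 FPKM or more. There 17.6% of genes had a share of 90% or more, 17.9% one of 10% or less, and 26.4% lay from 40% to 60%. A yolk sac share at an end therefore says little about a single gene.

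The ends were spread over the levels of expression and were densest among abundant genes. Of 464 genes at 100 FPKM or more, 7 were at the paternal and 13 at the maternal end (4.31% in all). Between 20 and 100 FPKM the numbers were 8 and 12 of 1701 genes (1.18%), and between 5 and 20 FPKM 12 and 30 of 3219 (1.30%). The highest of all was Rn45s, the ribosomal RNA precursor, with 0 FPKM from the paternal and 27882 FPKM from the maternal allele; in extraembryonic ectoderm it had 11648 FPKM at a share of 34.4%, and in epiblast it was listed at 0. It is encoded in many near-identical repeats, so its reads cannot be assigned to 1 locus.

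The label of the tissue held against its own markers, while parietal endoderm markers also had their highest sum of the E6.5 tissues in visceral endoderm. Of 26 visceral endoderm markers, 24 were among the 5384 genes, and the list summed to 16078 FPKM in visceral endoderm, 1730 FPKM in extraembryonic ectoderm and 80.05 FPKM in epiblast. The extraembryonic ectoderm column thus carried endoderm transcripts too, and their part in its shares was not tested. In pooled bulk tissue, fewer cells of a type and less RNA per cell cannot be told apart. Epiblast markers summed to 238 FPKM in visceral endoderm, against 1875 FPKM in epiblast. In visceral endoderm 4 of the 13 were at 5 FPKM or more outside the X list. The X-linked Pim2, with 6.32 FPKM in visceral endoderm, is in the sum but not among the 4. Fgf5 had 91.9 FPKM in visceral endoderm, above its 60.8 FPKM in epiblast, and Dnmt3b 80.9 FPKM, against 517 FPKM in epiblast. These 2 made up most of the sum in visceral endoderm, while the defining epiblast marker Pou5f1 had 0.334 FPKM there, against 79.4 FPKM in epiblast. Utf1 had 47.2 FPKM in visceral endoderm, against 369 FPKM in epiblast. Extraembryonic ectoderm markers summed to 76.2 FPKM in visceral endoderm and 592 FPKM in extraembryonic ectoderm. Only 2 of the 12 reached 5 FPKM in visceral endoderm, Eomes with 59.2 FPKM and Ddah1 with 7.49 FPKM. In extraembryonic ectoderm these had 61.0 and 118 FPKM. Elf5 had 0.260 FPKM in visceral endoderm, against 124 FPKM in extraembryonic ectoderm. Parietal endoderm markers summed to 197 FPKM in visceral endoderm, 45.5 FPKM in extraembryonic ectoderm and 27.3 FPKM in epiblast. In visceral endoderm 5 of these 10 reached 5 FPKM, led by Sparc with 103 FPKM. The part of parietal endoderm in the visceral endoderm column was not tested. RNA of the mother would be read as maternal only: the 15 decidua markers summed to 19.4 FPKM, of which Bmp2 gave 16.0 FPKM at a share of 40.03%, with Prl8a2 and 8 others listed at 0. The 14 blood markers summed to 0.484 FPKM, all of it maternal, with 10 listed at 0. Of that sum 0.417 FPKM came from Alas2, which is X-linked and so outside the autosomal genes described here. A listed 0 does not show absence here: genes that every cell uses are also at 0, and Vim, Hba-a1, Hbb-b1 and Hbb-b2 were at 0 in all columns, yolk sac included. The part of maternal tissue in the maternal end was not tested.

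The autosomal genes that define visceral endoderm were expressed from both alleles. Cited1, an X-linked marker with 199 FPKM in visceral endoderm at a share of 3.71%, is in the marker sum above but not counted here. The median share of the 24 autosomal markers at 5 FPKM or more was 49.5%, beside 49.1% over all genes. None was at an end, where only 1.52% of all genes were, so a count of 0 does not set the markers apart. Spink3, a serine protease inhibitor gene and the most abundant of them, had 4534 FPKM from the paternal and 5329 FPKM from the maternal allele. Apoa1, which encodes the main protein of high-density lipoprotein, had 553 and 771 FPKM from these alleles, and Afp, the fetal serum protein alpha-fetoprotein, 293 and 173 FPKM. The extremes of the list were Trf, the iron carrier transferrin, with a share of 28.9%, and Apoa2 with 63.8%. The endoderm regulators stood close to equal, with Foxa2 at 50%, Hnf4a at 50.1%, Gata6 at 49.1% and Sox17 at 48.9%.

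The gene groups for the tissue's work had medians close to that of all genes. The 11 measured lipid particle genes had a median of 49.5%, the 12 uptake and endocytosis genes 48.0% and the 15 cathepsin and lysosome genes 49.3%, with no member of the 3 lists at an end. The 12 measured repressors of imprinted alleles also had none, at a median of 48.9%. With 1.52% of all genes at an end, these counts of 0 do not set the lists apart. Among them Zfp57 was at 31.6% (2.57 FPKM paternal, 5.57 FPKM maternal) and Dppa3, which protects the maternal genome from demethylation, at 72.7% (4.52 and 1.70 FPKM). Of 16 housekeeping genes measured, 1 was at an end: the glycolytic enzyme gene Eno1, at 94.7%.

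Of the imprinted genes, those known for paternal expression came next to the top of the scale. The list held 32 genes, 30 of them in the table and 9 at 5 FPKM or more. Those 9 had a median share of 93.7%, and 5 were at the paternal end, where 0.501% of all genes were. None was at the maternal end. Of the 5 genes of the H3K27me3 list in the table, 2 reached 5 FPKM and 1 was at the paternal end.

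Mest, a gene for a hydrolase-fold membrane protein and the most abundant of these, had 387 FPKM from the paternal and 0.235 FPKM from the maternal allele, a share of 99.9%. Its share was 99.97% in extraembryonic ectoderm (117 FPKM in all) and 100% in epiblast (94.0 FPKM). Peg3, a zinc finger gene with known roles in growth and maternal care, had 55.6 FPKM paternal and 1.63 FPKM maternal in visceral endoderm (97.2%), and 98.5% in extraembryonic ectoderm. In epiblast Peg3 was at 2.46 FPKM, under the minimum.

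The fetal growth factor gene Igf2 was paternal in visceral endoderm at 33.6 against 0.256 FPKM maternal (99.2%), with a share of 81.7% in extraembryonic ectoderm (26 FPKM) and 100% in yolk sac (235 FPKM). Epiblast had 0.107 FPKM of it. Peg10, a retrotransposon-derived gene needed for the placenta, had 19.3 FPKM, all paternal. It was at 99.9% in extraembryonic ectoderm and at 100% in yolk sac (135 FPKM), and was listed at 0 in epiblast. Thus 3 of these genes, Peg3, Igf2 and Peg10, could not be compared with epiblast.

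Impact, which encodes a regulator of the translation kinase GCN2, had 18.4 FPKM paternal and 1.25 FPKM maternal (93.7%). Extraembryonic ectoderm had 94.7% and epiblast 95.9%. The 8-cell column had 95.6%, morulae 97.3%, inner cell mass 95.5%, trophectoderm 85.9% and yolk sac 100%. Impact was thus the 1 imprinted gene at the paternal end that could be measured in every column. Sfmbt2, a Polycomb-group gene of the H3K27me3 list, had 8.91 FPKM paternal and 0.258 FPKM maternal (97.2%). Its share was 100% in inner cell mass, 99.3% in trophectoderm, 99.5% in extraembryonic ectoderm and 100% in yolk sac, and epiblast had 0.0281 FPKM of it. With 1 FPKM added to each allele Impact (89.6%) and Sfmbt2 (88.7%) were no longer at the end.

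Members of the paternal lists that stayed short of 90% were Sgce, Gab1, Bcl2l1, Ddc and Inpp5f. Sgce, the sarcoglycan gene next to Peg10, had 18.5 FPKM paternal and 4.34 FPKM maternal (81.0%), beside 92.6% in extraembryonic ectoderm. Gab1, which encodes a docking protein for receptor kinases and is on the H3K27me3 list, had 17.1 and 6.48 FPKM from these alleles (72.5%); its share was 97.4% in extraembryonic ectoderm (36.6 FPKM). Earlier, Gab1 stood at 98.9% in morulae, 84.2% in inner cell mass and 91.4% in trophectoderm. The E9.5 yolk sac sample had 33.3% (9.45 FPKM), in a column where only 26.4% of genes lay from 40% to 60%. Bcl2l1, an inhibitor of apoptosis, was at 70.3% in visceral endoderm, 63.9% in extraembryonic ectoderm and 81.7% in epiblast. Ddc, the decarboxylase of amine synthesis, was at 63.1% and Inpp5f, an inositol phosphatase gene, at 54.9%, the second with 78.8% in epiblast (9.21 FPKM).

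**Figure D2:**
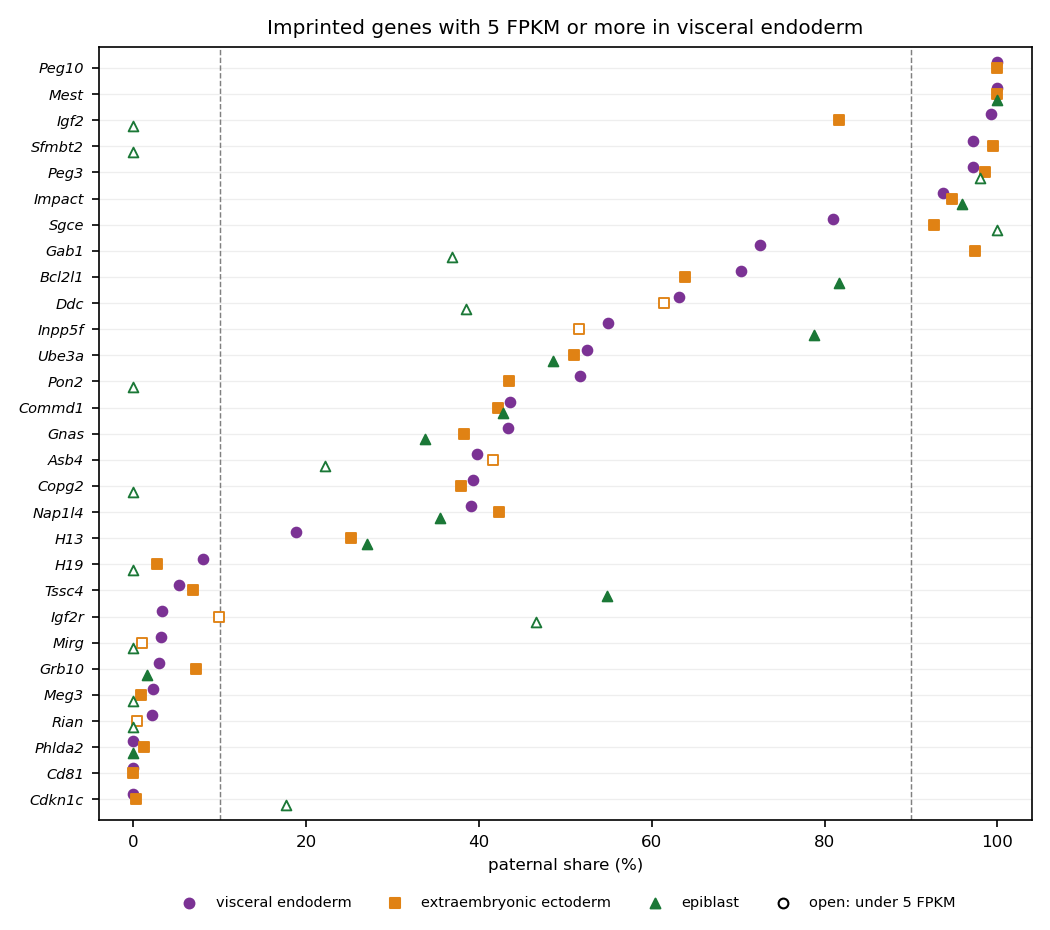
Paternal share (%) of the imprinted-list genes with at least 5 FPKM in visceral endoderm (circles), in extraembryonic ectoderm (squares) and in epiblast (triangles); open symbols stand for columns under 5 FPKM, and a gene listed at 0 has no symbol. The genes fall into a paternal end from Peg10 to Impact, a middle from Sgce at 81.0% to H13 at 18.9%, and a maternal end below H19 at 8.10%, with Tssc4 in epiblast at 54.8% far from its other symbols.

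Genes known for maternal expression formed the larger group. Of 48 on the list, 47 were in the table and 18 reached 5 FPKM, with a median share of 6.72%. That median was 39.1% with a minimum of 20 FPKM, and 18.9% without genes listed at 0 for 1 allele. The maternal end held 10 of the 18, where 1.02% of all genes were, and the paternal end none. In extraembryonic ectoderm 17 reached the minimum with a median of 7.30%, and in epiblast 10 did with a median of 30.4%.

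H19, a noncoding RNA next to Igf2, was the most abundant, with 42.9 FPKM from the paternal and 486 FPKM from the maternal allele (8.10%). It was at 2.72% in extraembryonic ectoderm (213 FPKM) and at 0% in yolk sac (238 FPKM), while epiblast had 1.38 FPKM. The paternal H19 level of 42.9 FPKM in visceral endoderm was the highest minor-allele value of any gene at an end on these lists. Igf2 and H19 were neighbours within 5 genes on chromosome 7 at opposite ends.

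The 3 noncoding RNAs of the Dlk1 region on chromosome 12 had similar shares. Meg3 had 0.756 FPKM paternal and 32.7 FPKM maternal (2.26%), Mirg 0.608 and 18.5 FPKM (3.18%) and Rian 0.307 and 14.1 FPKM (2.13%). Meg3 was at 0.864% in extraembryonic ectoderm (6.47 FPKM) and at 0% in yolk sac (33.5 FPKM), and all 3 were under 5 FPKM in epiblast, with no paternal FPKM.

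On distal chromosome 7, 4 neighbouring genes were at the maternal end. Cd81, which encodes a tetraspanin membrane protein, had 0 FPKM paternal and 28.6 FPKM maternal. Its share was also 0% in extraembryonic ectoderm (26.4 FPKM), and it was listed at 0 in the other 6 columns. Phlda2, which limits placental growth, had 6.55 FPKM, all maternal, beside 1.21% of 383 FPKM in extraembryonic ectoderm and 0% of 23.0 FPKM in epiblast. Cdkn1c, a cyclin-dependent kinase inhibitor gene, had 5.67 FPKM, all maternal, beside 0.350% in extraembryonic ectoderm (11.3 FPKM) and 0% in yolk sac (168 FPKM).

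Tssc4, which lies between Cd81 and Cdkn1c, stood apart from this group by tissue. In visceral endoderm it had 0.449 FPKM paternal and 7.95 FPKM maternal (5.35%), and in extraembryonic ectoderm a share of 6.98% (11.1 FPKM). In epiblast it was at 54.8% (12.3 FPKM). The 8-cell column had 48.2%, morulae 40.6%, inner cell mass 50.9% and trophectoderm 39.0%, at 5.50 to 11.4 FPKM. Of the columns that measured it, only the 2 extraembryonic ones of E6.5 were at the maternal end, at levels close to those of the balanced columns; yolk sac was listed at 0.

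Igf2r, the receptor that clears IGF2, had 0.224 FPKM paternal and 6.41 FPKM maternal in visceral endoderm (3.37%). It was at 9.90% in extraembryonic ectoderm (4.72 FPKM) and at 46.7% in epiblast (1.26 FPKM), both under the minimum. In 8-cell embryos it was at 39.6% (44.5 FPKM) and in morulae at 49.6% (13.7 FPKM). Reads of Igf2r and of its antisense RNA Airn cannot be told apart where they overlap. Grb10, which encodes an adaptor that restrains growth factor signalling, had 1.98 FPKM paternal and 65.2 FPKM maternal (2.95%), beside 7.30% in extraembryonic ectoderm (19.5 FPKM) and 1.61% in epiblast (7.35 FPKM). With 1 FPKM added to each allele Tssc4 (13.9%), Igf2r (14.2%), Phlda2 (11.7%) and Cdkn1c (13%) were no longer at the maternal end. Phlda2 and Cdkn1c had no paternal FPKM, so their move follows from their low totals alone.

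**Figure D3:**
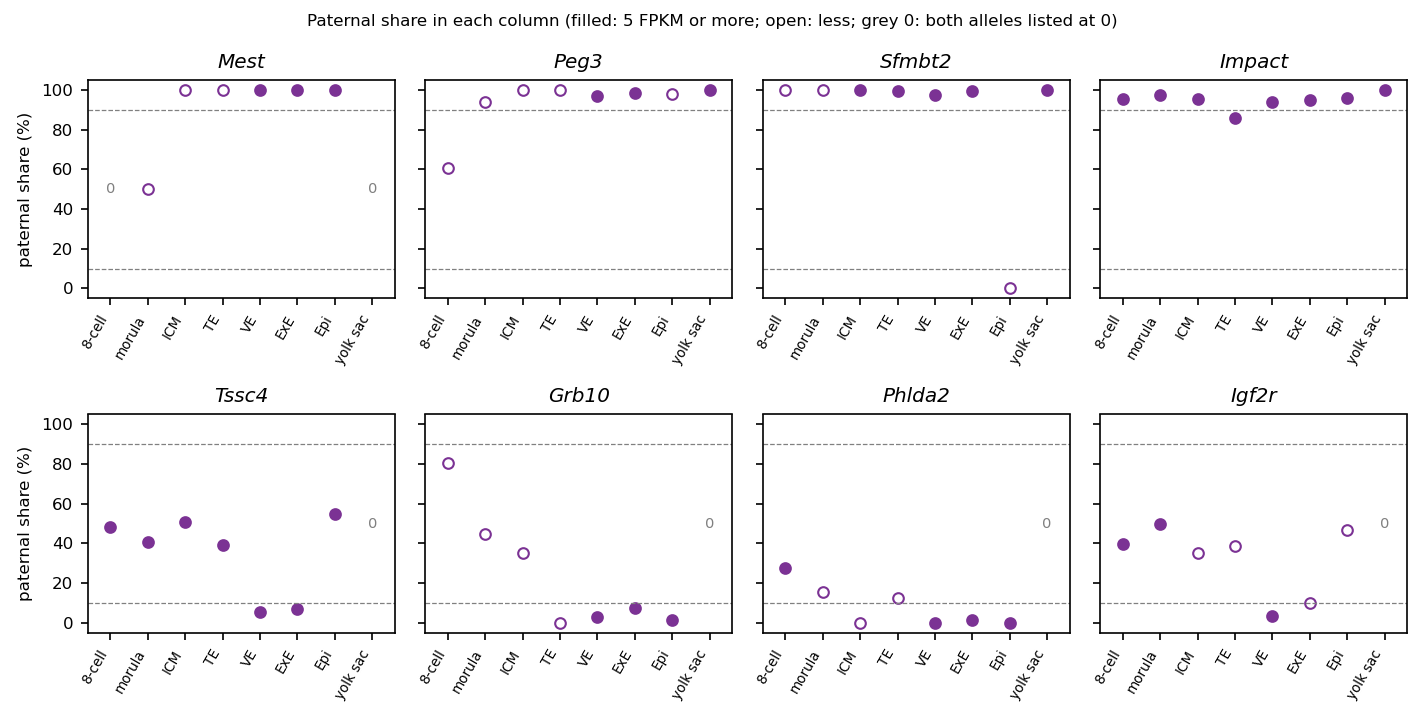
Paternal share (%) in each column of the table, from 8-cell embryo to yolk sac, for 4 genes at the paternal end (top) and 4 at the maternal end (bottom) of visceral endoderm; filled circles are columns of 5 FPKM or more, open circles less, a grey 0 both alleles listed at 0. Impact was above the upper line in all columns but trophectoderm (85.9%), while Tssc4 was below the lower line in visceral endoderm (5.35%) and extraembryonic ectoderm (6.98%) only.

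The 8 maternal-list genes that were not at the end were led by H13, a signal peptide peptidase gene, at 18.9% (2.50 FPKM paternal, 10.7 FPKM maternal), 25.2% in extraembryonic ectoderm and 27.1% in epiblast. The other 7 lay between 39.1% and 52.5%. They were Nap1l4 (39.1%), Copg2 (39.3%), Asb4 (39.8%), Gnas (43.3%), Commd1 (43.6%), Pon2 (51.7%) and Ube3a (52.5%). For Gnas, the gene of a signalling G protein, and for Ube3a, a ubiquitin ligase gene, imprinting is known to be confined to certain transcripts or tissues.

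Of all 82 genes at an end, 16 were on the imprinted lists, 6 paternal and 10 maternal, and 66 were not. With 1 FPKM added to each allele, 25 of the 82 were no longer past their limit. At totals near 5 FPKM that addition moves a gene off its end even if the other allele was at 0. Over all 4959 genes at 5 FPKM or more in epiblast, 0.807% had an epiblast share of 90% or more and 1.11% one of 10% or less. An epiblast share on the same side of the same limit, at 5 FPKM or more, was found for 11 of the 27 paternal-end genes and 19 of the 55 maternal-end genes. Mest and Impact and, on the maternal side, Grb10 and Phlda2 were among these, so an equal skew in epiblast also holds for known imprinted genes. In epiblast 12 paternal-end and 28 maternal-end genes were under 5 FPKM and were not assessed, 7 and 18 of them listed at 0. A share between the limits was found for 3 and 7, and 1 gene on each side was at the opposite end.

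The unlisted genes equally skewed toward the paternal allele in epiblast were 9. H3f3a, which encodes the replacement histone H3.3, had 472 FPKM, all paternal, and was at 100% in epiblast (592 FPKM) but at 22.1% in extraembryonic ectoderm (403 FPKM). Eno1 had 401 FPKM paternal and 22.6 FPKM maternal, at 93.4% in extraembryonic ectoderm and 94.9% in epiblast. The mitotic kinase gene Plk1 had 44.3 FPKM, all paternal, and Ube2v1, a partner of ubiquitin-conjugating enzymes, 41.8 FPKM paternal and 0.483 FPKM maternal. Plk1 was at the same end in all 6 other columns where it reached 5 FPKM and Ube2v1 in all 7. Gm8615 and Gm6654, both annotated as transcribed pseudogenes, were there in all 6 of theirs. Hnrnpa3, an RNA-binding protein gene (23.9 FPKM paternal, 0.144 FPKM maternal), was in all 4. Gm13154 (96.7%) and Ccnb1ip1 (93.9%) were not: Ccnb1ip1, a meiotic crossover gene, was at 6.30% in 8-cell embryos and 17.0% in morulae, and Gm13154 at 52.3% and 61.4%.

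Toward the maternal allele, 17 unlisted genes were equally skewed in epiblast. The most abundant were Mir682 (548 FPKM), listed at 0 for the paternal allele, and the ribosomal protein gene Rpl29 (463 FPKM), listed likewise. Atp5g1, a subunit c gene of the mitochondrial ATP synthase, had 1.27 FPKM paternal and 243 FPKM maternal, and its share lay between 0.515% and 1.83% in all 6 other columns measured. Dynll1, a dynein light chain gene, was at 8.22%, Ssr2, part of the translocon-associated complex, at 8.57%, and Ppa1, a pyrophosphatase gene, at 5.26%. Gm13826 had 0.106%, Hist1h4d 6.24%, and Gabarapl2, an autophagy gene, 5.01%. Gm5148 had 40.2 FPKM, all maternal. The other 7 were Gm6682, Rps15a-ps6, Snora65, Srp54c, Srp54a, 2610524H06Rik and Atpaf1. The neighbours Srp54a and Srp54c on chromosome 12 are near-identical copies, and like the histone, pseudogene and Gm genes they can share reads, so their shares are uncertain.

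Of the unlisted genes with 5 or more other columns at the minimum, 4 of 13 at the paternal end and 10 of 21 at the maternal end were at the same end in every one. The 10 were Mir682, Rpl29, Atp5g1, Ppa1, Gm13826, Hist1h4d, Gabarapl2, 2200002D01Rik, Srp54c and 2610524H06Rik. Neither imprinted gene with as many columns, Impact and Tssc4, was.

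**Figure D4:**
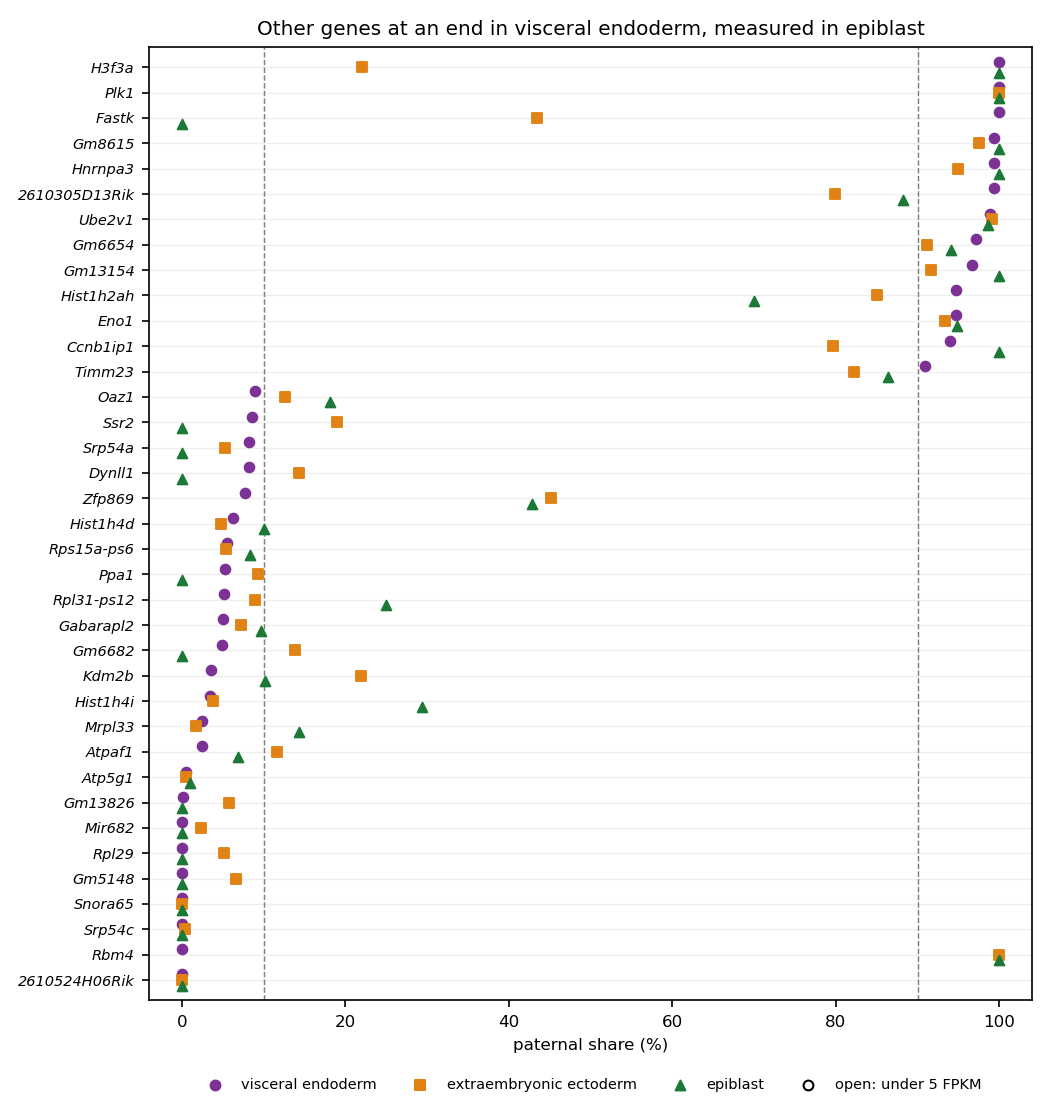
Paternal share (%) of the 37 unlisted genes at an end in visceral endoderm (circles) that reached 5 FPKM in epiblast (triangles), with extraembryonic ectoderm as squares; each of these columns was at 5 FPKM or more, so no symbol is open. Fastk and Rbm4 have their circle and triangle at opposite sides, and 26 of the 37 genes have both past the same dashed line (10% or 90%).

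Epiblast placed 3 paternal-end and 7 maternal-end genes between the limits, and 1 gene of each end at the opposite end. Fastk, whose protein acts in mitochondrial RNA processing, had 14.1 FPKM, all paternal, in visceral endoderm, a share of 43.5% in extraembryonic ectoderm and 14 FPKM, all maternal, in epiblast. Rbm4, a splicing regulator gene, had 13.8 FPKM, all maternal, in visceral endoderm, while extraembryonic ectoderm (17.1 FPKM) and epiblast (13.2 FPKM) were listed as all paternal. In the other columns at 5 FPKM, Fastk was at 12.5% in morulae, 57.1% in inner cell mass and 12.5% in trophectoderm, and Rbm4 at 100% in inner cell mass and trophectoderm.

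Between the limits in epiblast were Hist1h2ah (94.7% in visceral endoderm, 70.0% in epiblast), 2610305D13Rik (99.4% and 88.2%) and the mitochondrial import gene Timm23 (90.9% and 86.3%). On the maternal side Tssc4 was joined by 6 unlisted genes. Zfp869, a zinc finger gene, had 0.429 FPKM paternal and 5.15 FPKM maternal (7.69%), beside 45.2% in extraembryonic ectoderm (12.5 FPKM) and 42.9% in epiblast (14.5 FPKM). Kdm2b, a histone demethylase and Polycomb recruitment gene, had 0.208 and 5.61 FPKM (3.57%), beside 22% in extraembryonic ectoderm (8.97 FPKM) and 10.2% in epiblast (7.85 FPKM); it was at 32.1% in 8-cell embryos and 52.8% in morulae. Oaz1, the ornithine decarboxylase antizyme gene, was at 8.95% in visceral endoderm and 18.2% in epiblast, Mrpl33 at 2.51% and 14.3%, Rpl31-ps12 at 5.13% and 25%, and Hist1h4i at 3.45% and 29.4%. With 1 FPKM added, 2610305D13Rik (87.2%), Zfp869 (18.9%), Kdm2b (15.4%), Rpl31-ps12 (11.6%) and Hist1h4i (11.3%) left their end. Oaz1 (10.9%) did when the allele columns were scaled to equal sums, on which Rn45s weighs. With Rn45s left out of those sums, 55 genes were at the maternal end, the same number as without scaling.

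The unlisted genes that epiblast did not assess included the most abundant ones. At the paternal end these were Rps7, Ost4, Capzb, Rce1, Hist2h3b, Eps15l1, Hp1bp3 and Snord33. Rps7, a small ribosomal subunit gene, had 550 FPKM, all paternal, in visceral endoderm, and extraembryonic ectoderm had 892 FPKM at 5.66%. Ost4, an oligosaccharyltransferase gene, had 385 FPKM, all paternal, and 90% in extraembryonic ectoderm. Capzb, which caps actin filaments, was at 100% in visceral endoderm (53.7 FPKM) and extraembryonic ectoderm (81.0 FPKM), but was all maternal in morulae (83.6 FPKM) and trophectoderm (211 FPKM). Hp1bp3, a heterochromatin protein gene, had 7.22 FPKM paternal and 0.0239 FPKM maternal, and 100% in extraembryonic ectoderm.

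At the maternal end 21 unlisted genes were not assessed. Among the most abundant after Rn45s were Hist1h2ao (350 FPKM), Gpx4, the lipid peroxide reductase gene (288 FPKM), Atp5l, an ATP synthase subunit gene (259 FPKM) and Vps26a, a retromer gene (52.5 FPKM), each with the paternal allele listed at 0. Extraembryonic ectoderm placed Gpx4 at 0.410%, but Atp5l at 96.9% and Hist1h2ao at 38.7%, and Vps26a was listed at 0 there. AI662270, a long noncoding RNA, had 1.29 FPKM paternal and 25.7 FPKM maternal (4.78%), beside 21.2% in inner cell mass (37.4 FPKM) and 23.3% in trophectoderm (35.9 FPKM). 2200002D01Rik, with 0.679 and 24.4 FPKM (2.71%), was at the maternal end in all 6 other columns that measured it. Mtx1, a mitochondrial import gene, and Gm15421 were also among the most abundant, both listed at 0 for the paternal allele.

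The families were unevenly represented. Of 18 histone cluster genes, 2 were at the paternal and 3 at the maternal end (27.8%), of 16 predicted Gm genes 3 and 4 (43.8%) and of 11 annotated pseudogenes 2 and 3 (45.5%), where all genes had 1.52%. Gm8615, Gm6654, Gm6682 and Gm15421 are counted both as Gm genes and as pseudogenes. The 42 long noncoding RNAs had 6 at the maternal end (14.3%). They were H19, Meg3, Mirg and Rian of the imprinted list, described above, and the unlisted AI662270 and D630045M09Rik. Of 66 cytosolic ribosomal protein genes 1 was at each end (3.03%), and of 58 Zfp zinc finger genes 3 were at the maternal end. Protein-coding genes made up 24 of the 27 and 42 of the 55. By chromosome, the most paternal-end genes were on chromosome 4 (5 of 348). At the maternal end chromosomes 5 and 7 had 7 each (of 373 and 362), and chromosomes 12 and 13 had 6 each of fewer genes (204 and 211), while chromosome 15 had none among 216 genes. The counts of chromosomes 7 and 12 include the imprinted clusters described above. Besides the imprinted clusters and Srp54a with Srp54c, genes at an end within 5 genes of each other were Gm13154 and 2610305D13Rik on chromosome 4, on the same side, and Hist1h2ah and Hist1h4i on chromosome 13, on opposite sides.

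At the limits themselves, Timm23 (90.9%) and Impact (93.7%) were just inside 90%, and 1810037I17Rik (89.6%) and Gdf3, a TGF-beta family gene (89.0%), just outside. Oaz1 (8.95%) and Ssr2 (8.57%) were just inside 10%, and A4galt (11.2%) and Gm6251 (11.7%) just outside. In epiblast 1810037I17Rik was at 91.7% and Gdf3 at 61.5%.

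The form of the values bears on all extreme shares. The share of many genes was a small fraction such as 1 over a whole number up to 20: of genes above 0 for both alleles and at 5 FPKM or more, 2.37% in visceral endoderm, 2.70% in extraembryonic ectoderm and 14.4% in epiblast had a share within 2e-05 of a fraction with a denominator of at most 20, where evenly spread shares would give 0.508%. Below 1 FPKM it was 51.3%, 54.3% and 92.0% in these columns. A gene's FPKM therefore does not tell how many reads set its share. Of the 5384 genes, 123 were listed at 0 in epiblast, and 61 of these had 5 FPKM or more in extraembryonic ectoderm; the housekeeping genes Ppia, Aldoa and B2m were listed at 0 in visceral endoderm.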

How the data were processed

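Smart-seq2 RNA-seq of the E6.5 visceral endoderm was deposited as FPKM per gene, in 1 column for the paternal and 1 for the maternal allele, with the samples of each tissue pooled by the authors. Per the submitters' processing notes, the tools were HISAT2 2.2.0, StringTie 2.1.1 and Trim Galore 0.6.4 and the assembly mm9; the assignment of reads to alleles is not given in the sources used here. 5 summary lines were left out.

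Paternal FPKM was divided by the sum of both alleles to give the paternal share, with no pseudocount, for genes with a sum of at least 5 FPKM outside the deposited X list. Epiblast was taken to assess a gene at 5 FPKM or more. With pooled columns and no counts, depth is unknown, and no test of a difference and no spread between samples was computed. Order-statistic intervals of medians over genes served only to judge whether a median moved between settings. The reference assembly, GRCm38.p6, differs from that of the files and gave only chromosome, gene type, neighbour order and RefSeq promoter sequences. Every imprinted-list gene at 5 FPKM was named, then other genes at an end by level within their epiblast class (up to 15 differing, 10 equal and 10 not assessed per end); further names complete a class of few genes and were added after their values were seen. Some genes that the rule names are not reported here. Genes and lists were chosen with earlier results of these data known. The classification was run on simulated shares without noise, which checks that the code applies the limits and not how reliable a share is. Software was Python 3.11.15 with numpy 2.4.6, pandas 2.3.3, scipy 1.17.1 and matplotlib 3.10.9.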

Additional observations from a re-analysis of the deposited data

Results flagged for a closer look

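Fastk and Rbm4 were at opposite ends in visceral endoderm and epiblast. The paternal share of Fastk was 100 points higher in visceral endoderm than in epiblast, and that of Rbm4 differed by -100 points. Both alleles' values are single pooled columns, so these differences were not tested.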

How the results depend on the processing

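No paired analysis was possible because the pooled columns carry no replicate numbers, and for the same reason no replicate could be left out. The median share of 49.1% was 49.3% with a minimum of 20 FPKM, 54.6% with the allele columns scaled to equal sums and 50.3% when Rn45s was left out of those sums, a setting chosen after seeing the data. The 27 paternal-end and 55 maternal-end genes became 60 and 97 with a minimum of 1 FPKM, 15 and 25 with 20 FPKM, and 17 and 30 without genes listed at 0 for 1 allele; limits of 20% and 80% gave 53 at the paternal end. Of the equally skewed genes in epiblast, 11 paternal and 19 maternal, there were 7 and 11 with 20 FPKM, 7 and 11 with limits of 5% and 95%, 19 and 33 with limits of 20% and 80%, and 7 and 12 with 1 FPKM added to each allele; without genes listed at 0 for 1 allele 12 maternal ones were left. A higher or lower minimum and leaving out genes change how many genes are counted; for the other settings the cause was not tested. Adding 1 FPKM to each allele moves a gene with a total near 5 FPKM off its end, even if its other allele was at 0. With that addition, 57 of the 82 genes stayed past their limit and 25 did not. On the paternal side these were Impact (89.6%), Sfmbt2 (88.7%), Gm13154 (89.1%), Gm6654 (88.9%), Eps15l1 (89.8%), Hp1bp3 (88.9%), 2610305D13Rik (87.2%), Snord33 (86.8%) and Ccnb1ip1 (81.7%). On the maternal side they were Tssc4 (13.9%), Igf2r (14.2%), Phlda2 (11.7%), Cdkn1c (13%), Kdm2b (15.4%), Zfp869 (18.9%), Rps15a-ps6 (10.4%), Rpl31-ps12 (11.6%), Srp54a (14.2%), Styx (10.3%), Akr1c12 (10.6%), Hist1h4i (11.3%), Zfp422 (11.1%), Zfp598 (12%), Atpaf1 (14.1%) and Tox3 (13.1%). With equal sums 78 stayed, and Oaz1 (10.9%), Dynll1 (10.1%), Ssr2 (10.5%) and Srp54a (10.1%) did not. Rn45s weighs on these sums: the paternal allele made up 43.0% of the summed visceral endoderm FPKM with it and 46.9% without it. Scaling without Rn45s gave 28 genes at the paternal and 55 at the maternal end. The maternal imprinted list's median of 6.72% was 10.8% with a minimum of 1 FPKM, 39.1% with 20 FPKM, 18.9% without genes listed at 0 for 1 allele, 14% with 1 FPKM added and 8.25% with equal sums. The paternal list's median of 93.7% lay between 87.3% and 97.2% and that of the H3K27me3 list, 84.9%, between 72.5% and 87.2% over the settings run.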

Other observations

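Several imprinted genes were read from 1 allele in visceral endoderm at levels under 5 FPKM. Of the long noncoding RNAs that silence neighbours in cis, Airn had 4.19 FPKM paternal and 0.0487 FPKM maternal and Kcnq1ot1 2.02 and 0.0078 FPKM. Zrsr1, a splicing factor gene, had 1.66 FPKM paternal and 0.0462 FPKM maternal, and Dlk1, a Notch-family ligand gene, 1.24 and 0.0438 FPKM. Rtl1, whose known expression is paternal, had 0.0902 FPKM paternal and 4.37 FPKM maternal; an antisense transcript of the maternal allele overlaps it and cannot be told apart without strand. Ascl2, a trophoblast regulator gene, had 1.21 FPKM, all maternal. Slc38a4, on the H3K27me3 list, had 2.67 FPKM, all paternal, beside 96.5% in extraembryonic ectoderm. The share of Smoc1, on the same list, was 35.1% of 4.04 FPKM, beside 89.2% in extraembryonic ectoderm.

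Close to the ends, Gpx3, a secreted glutathione peroxidase gene, was at 18.0% of 92.8 FPKM in visceral endoderm, 64.8% in extraembryonic ectoderm and 50% in epiblast. Tyw5 was at 20% in visceral endoderm, 44.1% in extraembryonic ectoderm and 80% in epiblast. Ifitm1 was at 84.7% in visceral endoderm, 67.7% in extraembryonic ectoderm and 22.2% in epiblast. These genes were picked after their values were seen, and none of the differences was tested.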
